A study of Mus musculus with 4 samples.

Results

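Astrocytes and oligodendrocytes are the macroglia of the brain, and 46 genes of these lineages were followed in NSCL61 and NSCL61-sox11, neural stem cell lines of the mouse. The 46 genes are 20 astrocyte genes, 7 genes of oligodendrocyte precursors, 17 genes of myelin and maturing oligodendrocytes, and 2 genes of neural stem cells. They were picked by name from what they are known to mark, with earlier results of these data known. Each was read on the probe set with the highest mean of the 4 arrays among those that the platform annotation assigns to that gene alone, here called its brightest probe set. All 46 were found, among 18193 named genes, and no gene was left out for a low level.

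NSCL61 cells are p53-/- neural stem cells taken from the telencephalon of C57BL/6 embryos at embryonic day 14.5, and the labels describe them as resembling glioma-initiating cells. NSCL61-sox11 cells have the same origin and p53-/- genotype and also express sox11, a gene for a transcription factor of the SOX family; by the submitters' design text they no longer formed tumours in vivo, and the arrays were run to find genes that differ. Both lines grew as floating spheres in serum-free medium with PDGF at 10 ng/ml, forskolin at 5 µM and bFGF. There were 2 arrays of each line, and NSCL61-sox11 is 1 derivative line. The sources used here do not say how sox11 was introduced.

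Astrocytes take up glutamate and potassium, buffer pH and supply neurons with metabolites, and they share many transcripts with the radial glia and neural stem cells from which they arise. Oligodendrocyte precursors are specified by the transcription factors Olig1, Olig2 and Nkx2-2 and divide in response to PDGF, and their progeny wrap axons in myelin, a membrane rich in galactolipids and in a few abundant proteins. SOX proteins are DNA-binding factors with members at each step of these lineages.

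Levels are deposited array values on a log2 scale, and a log2 fold change is NSCL61-sox11 minus NSCL61. A level compares arrays on 1 probe set and does not rank transcript amounts between genes, whose probes differ. The lines were compared with limma over all 45037 probe sets, and a gene is called where its adjusted p is under 0.05. The Sox11 gene itself rose from 4.95 ± 0.19 to 7.85 ± 0.16 (SD, n = 2 each). Arrays of the same line correlated at r = 0.996 to 0.997 and arrays of different lines at 0.985 to 0.987, across probe sets, which are not independent replicates. The labels do not state separate cultures for the arrays of a line, so each p-value measures just the spread between these samples, which may be technical. With 2 arrays against 2, an exact permutation test cannot go below p = 0.333 (two-sided), and the adjusted p-values rest on the variance that limma shares across probe sets. Directions are on the scale of the deposited values, where the median log2 fold change of all genes was -0.02. Poly-A control scaling lowers every log2 fold change by 0.404 and hybridisation control scaling lowers each by 0.217.

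Of the 46 genes, 3 rose in NSCL61-sox11, 1 fell and 42 did not pass the test. The risers were Slc1a3, Slc4a4 and Cst3, of the astrocyte group, and the gene that fell was Galc, of the myelin group. The share called, 8.70%, stood beside 13.0% of all 18193 genes (6.94% higher and 6.01% lower). An unadjusted p under 0.05 was reached by 10 of the 46 and by 5012 of the 18193. These values for all genes are the baseline for the counts of each group and list below. Among genes that reached the level of 5.15 in at least 1 line, 17.3% were called. That level is the upper edge of the dimmest 40% of probe sets, and a mean below it is called dim. Of the 46, 16 were dim in both lines, 3 in 1 line and 27 in neither. Slc1a3 and Slc4a4 were the 2 that were called and changed at least 2-fold, against 3.41% of all genes. The arrays of the lines did not overlap for 9 genes that were higher and 17 that were lower in NSCL61-sox11, against 25.0% and 30.6% of all genes. In size, 40 of the 46 log2 fold changes lay within 0.5 of 0, beside 16310 of all 18193 genes, and the median was -0.07. For 43 of the 46, the 95% interval lay within a 2-fold difference in either direction, the exceptions being Slc1a3, Slc4a4 and Chrdl1. The same held for 17000 of all 18193 genes.

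**Figure D1:**
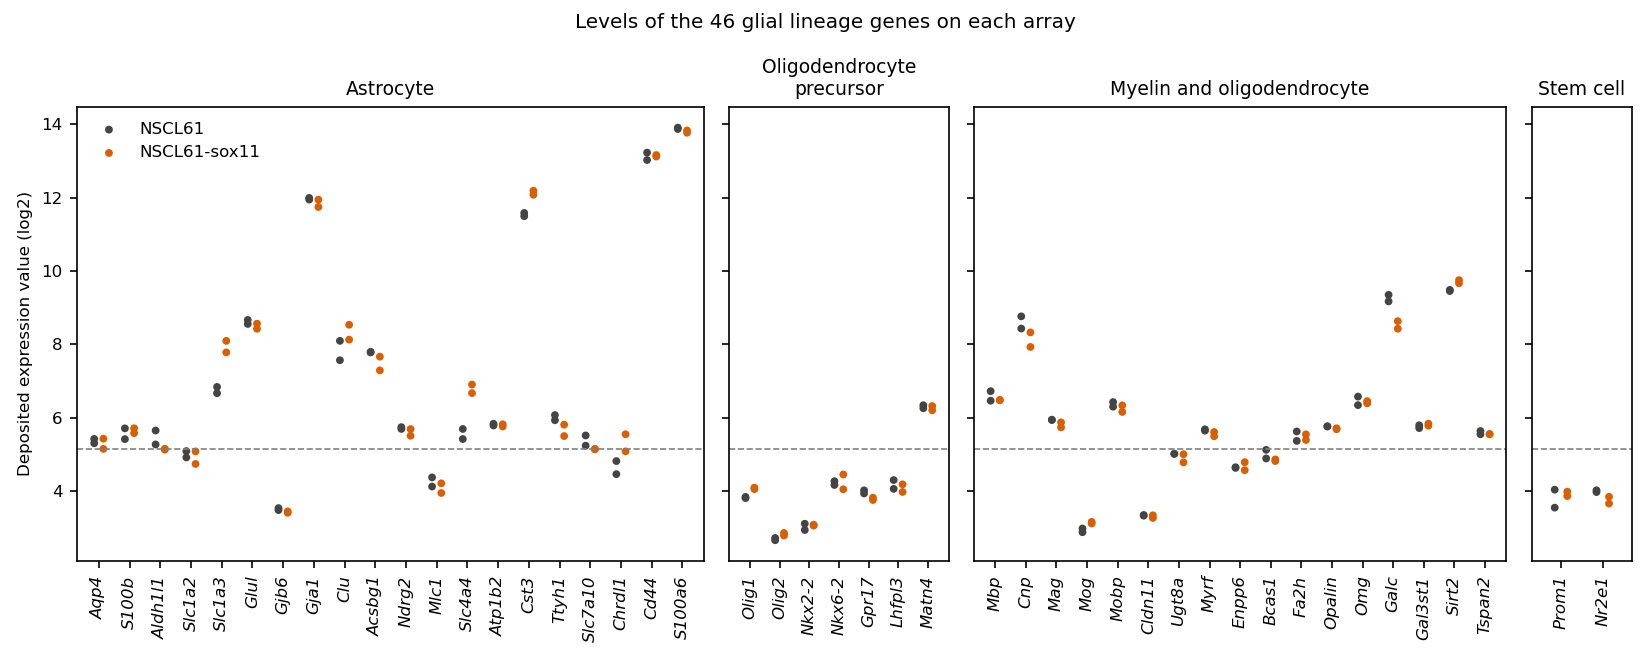
Deposited log2 value of the brightest probe set of each of the 46 genes on each array, with 1 point per array (grey, NSCL61, n = 2; orange, NSCL61-sox11, n = 2) and a panel per gene group; the dashed line is the dim level of 5.15. S100a6, Cd44, Gja1 and Cst3 had the highest values, 6 of the 7 precursor genes lay under the line in both lines, and the orange points of Slc1a3 and Slc4a4 lay above the grey ones.

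**Figure D2:**
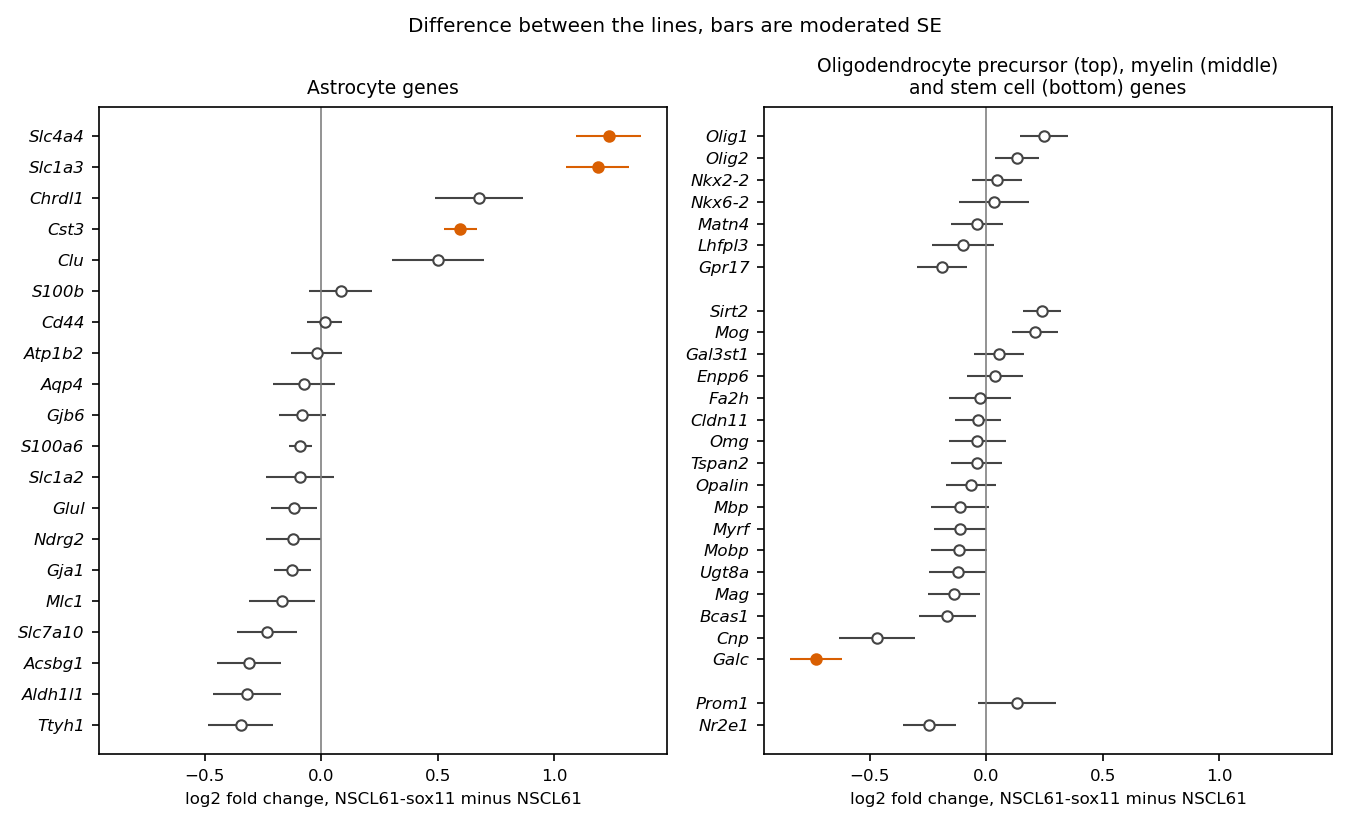
Log2 fold change (NSCL61-sox11 minus NSCL61, n = 2 arrays each) of each gene on the x axis, with moderated SE as bars and genes ordered by value within their group; filled orange points passed at an adjusted p under 0.05. Slc4a4 (1.23), Slc1a3 (1.19) and Cst3 (0.60) passed as higher and Galc (-0.73) as lower, while most others lay within 0.5 of 0.

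Slc1a3 encodes the glutamate transporter GLAST of astrocytes and radial glia. On its brightest probe set, 1443749_x_at, the level was 6.66 and 6.84 on the NSCL61 arrays and 7.78 and 8.09 on the NSCL61-sox11 arrays. Both NSCL61-sox11 arrays lay above both NSCL61 arrays, and the mean rose from 6.75 ± 0.12 to 7.94 ± 0.22 (SD, n = 2 each). This was a 2.28-fold rise, 1.19 on the log2 scale (SE 0.14, limma adjusted p = 0.0021). Slc1a3 had 6 probe sets, and 3 others were called, each with a larger rise than the brightest. Probe set 1452031_at read 5.42 and 5.79 in NSCL61 and 7.92 and 8.68 in NSCL61-sox11, 6.46-fold higher (limma adjusted p = 0.00073). Probe set 1426340_at read 5.13 and 5.32 against 7.59 and 8.17, 6.26-fold higher (limma adjusted p = 0.00026). Probe set 1426341_at read 5.78 and 5.69 against 7.34 and 7.71, 3.47-fold higher (limma adjusted p = 0.00043). The other two probe sets differed by 0.31 and 0.37 on the log2 scale and did not pass. The rise on the 4 called probe sets was thus between 2.28-fold and 6.46-fold, the 2 uncalled ones were 1.24-fold and 1.30-fold higher, and the mean of all 6 gave a log2 fold change of 1.50. The brightest probe set was no longer called without NSCL61 array 1 (1.10, adjusted p = 0.053) and with poly-A control scaling (0.78, adjusted p = 0.11). Those of the 3 others held under both, at log2 fold changes of 1.39 to 2.29 with poly-A control scaling.

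Slc4a4 encodes the electrogenic sodium bicarbonate cotransporter NBCe1, with which astrocytes move bicarbonate. Its brightest probe set, 1434096_at, read 5.69 and 5.41 on the NSCL61 arrays and 6.90 and 6.67 on the NSCL61-sox11 arrays, with no overlap. The mean rose from 5.55 ± 0.19 to 6.78 ± 0.16 (SD, n = 2 each), 1.23 on the log2 scale (SE 0.14, limma adjusted p = 0.0021) or 2.35-fold. Of its 4 other probe sets, 2 rose by 0.80 and 0.60 (limma adjusted p = 0.0076 and 0.020) and 2 differed by 0.08 and -0.02. The mean of all 5 gave 0.54 (adjusted p = 0.016). With poly-A control scaling the log2 fold change of the brightest was 0.83 and the call was lost (adjusted p = 0.073). It held when any 1 array was left out, while the calls of both lesser probe sets were lost without NSCL61 array 1 or NSCL61 array 2.

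Cst3, which encodes the secreted protease inhibitor cystatin C, was measured on 1 probe set. The level was 11.50 and 11.59 on the NSCL61 arrays and 12.08 and 12.19 on the NSCL61-sox11 arrays. The arrays of a line were close together, and the mean rose from 11.54 ± 0.06 to 12.14 ± 0.08 (SD, n = 2 each), 1.51-fold (log2 fold change 0.60, SE 0.07, limma adjusted p = 0.0024). Leaving out NSCL61 array 1 ended the call (adjusted p = 0.080), as did leaving out NSCL61 array 2 (adjusted p = 0.056). With poly-A control scaling the log2 fold change was 0.19 (adjusted p = 0.54), and with hybridisation control scaling 0.38 (adjusted p = 0.095).

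Galc encodes galactosylceramidase, a lysosomal enzyme that breaks down a main lipid of myelin and that cells outside the oligodendrocyte lineage also make. Its brightest probe set, 1452907_at, read 9.17 and 9.35 on the NSCL61 arrays and 8.43 and 8.63 on the NSCL61-sox11 arrays. Both NSCL61-sox11 arrays were lower than both NSCL61 arrays, and the mean fell from 9.26 ± 0.13 to 8.53 ± 0.15 (SD, n = 2 each), 1.66-fold (log2 fold change -0.73, SE 0.11, limma adjusted p = 0.0070). Of its other probe sets, 1 fell by 0.59 (limma adjusted p = 0.016) and 1, with a mean level of 3.45, differed by -0.06. The mean of the 3 was -0.46 and was called. The brightest was not called when NSCL61 array 1 (adjusted p = 0.067) or NSCL61 array 2 (0.12) was left out, and the call held with poly-A control scaling (-1.14, adjusted p = 0.0052).

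The 250 bases before the start site of the 4 called genes are shown because they are the promoter windows of the members that moved. They come from RefSeq on GRCm38.p6, read 5′ to 3′ on the strand of the gene, with CpG dinucleotides in capitals; Slc4a4 has 2 annotated start sites.
Slc1a3 (chr15:8710808-8711057, minus strand): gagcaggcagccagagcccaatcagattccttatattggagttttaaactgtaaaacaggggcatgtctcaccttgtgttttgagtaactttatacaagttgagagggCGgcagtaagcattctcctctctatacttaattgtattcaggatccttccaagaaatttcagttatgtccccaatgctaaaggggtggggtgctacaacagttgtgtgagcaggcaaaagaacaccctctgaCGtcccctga
Slc4a4, first (chr5:88887010-88887259, plus strand): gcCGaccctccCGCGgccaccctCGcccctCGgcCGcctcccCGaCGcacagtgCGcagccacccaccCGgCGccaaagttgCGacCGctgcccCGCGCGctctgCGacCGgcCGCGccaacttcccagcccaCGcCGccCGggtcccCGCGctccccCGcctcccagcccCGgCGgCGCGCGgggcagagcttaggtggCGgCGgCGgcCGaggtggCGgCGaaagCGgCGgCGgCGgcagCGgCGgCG
Slc4a4, the second (chr5:89027716-89027965, plus strand): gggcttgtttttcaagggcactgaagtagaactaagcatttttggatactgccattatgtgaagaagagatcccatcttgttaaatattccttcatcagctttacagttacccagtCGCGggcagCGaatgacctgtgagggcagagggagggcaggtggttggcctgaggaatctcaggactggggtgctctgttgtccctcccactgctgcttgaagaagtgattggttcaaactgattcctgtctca
Cst3 (chr2:148875513-148875762, minus strand): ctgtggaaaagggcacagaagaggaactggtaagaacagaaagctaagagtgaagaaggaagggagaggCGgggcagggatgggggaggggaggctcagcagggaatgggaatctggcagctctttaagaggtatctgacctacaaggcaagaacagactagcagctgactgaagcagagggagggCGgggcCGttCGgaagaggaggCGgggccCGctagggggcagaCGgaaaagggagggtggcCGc
Galc (chr12:98259460-98259709, minus strand): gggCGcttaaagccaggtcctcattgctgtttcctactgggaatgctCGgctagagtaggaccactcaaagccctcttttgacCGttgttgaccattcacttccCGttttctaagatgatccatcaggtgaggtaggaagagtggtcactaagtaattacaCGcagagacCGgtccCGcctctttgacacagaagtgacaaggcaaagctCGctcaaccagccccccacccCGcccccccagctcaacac

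The windows differed widely in base composition. The first Slc4a4 window was 82% G or C and held 44 CpG dinucleotides, while the second was 48.8% with 3. Slc1a3 had 44.8% and 2, Cst3 59.6% and 8, and Galc 54% and 9. Of the 46 genes, 35 had at least 1 window in the RefSeq table, 45 windows in all, with a median of 57.2% G or C and 8 CpG dinucleotides, against 52.4% and 6 in all 32851 windows of 27025 genes. SOX motifs were searched as AACAAT and AACAAAG on both strands, and 4 of the 45 windows (8.89%) held at least 1, against 13.8% of all windows. Those were windows of Olig2, Enpp6, Mobp and Cnp. The half-site of nuclear factor I, searched as TTGGCA on both strands, was in 2 of the 45 (4.44%), those of S100b and Cnp, against 12.3% of all. None of the 5 windows printed here held any of these letters, which describes the windows and nothing beyond them.

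The other astrocyte genes did not pass the test on their brightest probe sets. The brightest were S100a6, a calcium-binding protein gene, and Cd44, a hyaluronan receptor gene of immature and reactive astrocytes. S100a6 was at 13.90 ± 0.03 in NSCL61 and 13.81 ± 0.04 in NSCL61-sox11 (SD, n = 2 each), with a 95% interval of the difference from -0.20 to 0.03. Cd44 was at 13.13 ± 0.14 and 13.14 ± 0.03 (SD, n = 2 each), with an interval from -0.16 to 0.19. The arrays of the lines overlapped for Cd44 but not for S100a6, whose NSCL61-sox11 arrays were both lower. Gja1, the gap junction gene connexin 43, was at 11.97 ± 0.03 and 11.85 ± 0.14 (SD, n = 2 each) on its brightest probe set, with an interval from -0.31 to 0.06. All 6 Gja1 probe sets were lower in NSCL61-sox11, by -0.39 to -0.11, and 1 was called (1415801_at, limma adjusted p = 0.038). That call ended without NSCL61 array 1 (adjusted p = 0.18), NSCL61 array 2 (0.30) or NSCL61-sox11 array 2 (0.092), and with poly-A control scaling (0.094) or without the intensity trend (0.071).

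Chrdl1, which encodes a secreted BMP antagonist, gave different results on its probe sets. The brightest read 4.45 and 4.81 on the NSCL61 arrays and 5.08 and 5.54 on the NSCL61-sox11 arrays, a log2 fold change of 0.68 that did not pass (limma adjusted p = 0.067). Probe set 1434201_at read 3.33 and 3.53 against 4.97 and 5.66, 3.69-fold higher (limma adjusted p = 0.0021), and the other two differed by -0.02 and 0.08. All of these levels lie near or below 5.15, where the size of a change is uncertain, and without NSCL61 array 1 the call of 1434201_at was lost (adjusted p = 0.056). The mean of its 4 probe sets was 0.66 (adjusted p = 0.015).

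Clu, the gene of the secreted chaperone clusterin, had higher means in NSCL61-sox11 on all 4 of its probe sets, by 0.50 to 1.11, and none passed (limma adjusted p = 0.055 to 0.18). The brightest read 7.56 and 8.09 on the NSCL61 arrays and 8.13 and 8.53 on the NSCL61-sox11 arrays. The gap of 0.53 between its NSCL61 arrays was the widest between 2 arrays of a line among the 46 genes, whose median gap was 0.11 in NSCL61 and 0.13 in NSCL61-sox11. NSCL61 array 1 was the lowest of the 4 arrays on every Clu probe set.

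Several enzyme and channel genes of astrocytes were a little lower on average in NSCL61-sox11 without passing. Glul, the glutamine synthetase gene, differed by -0.12 from a level of 8.61. Acsbg1, an acyl-CoA synthetase gene, differed by -0.31 (limma adjusted p = 0.23), Aldh1l1, a folate enzyme gene much used as an astrocyte marker, by -0.32 (0.25), and Ttyh1, a membrane protein gene of neural stem cells and glia, by -0.35 (0.19). The genes for the water channel Aqp4 and the calcium-binding protein S100b were at 5.32 and 5.60 over the 4 arrays, near the dim level, and differed by -0.07 and 0.08. Their other probe sets were dim in both lines, with means of 3.74 and 2.66 for Aqp4 and 3.03 for S100b. The glutamate transporter gene Slc1a2, the connexin gene Gjb6 and Mlc1 were dim in both lines. The astrocyte group of 20 thus had 3 rises, 0 falls and 17 that did not pass, 15% called beside 13.0% of all genes. Of the 20, 6 had an unadjusted p under 0.05, beside 5012 of all 18193 genes, and the median was -0.09. With poly-A control scaling that median was -0.49 and 0 of the 20 were called. Their summed linear level was 31894 to 33420 on the NSCL61 arrays and 32279 to 34141 on the NSCL61-sox11 arrays, which overlap, and S100a6 and Cd44 make up most of it.

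**Figure D3:**
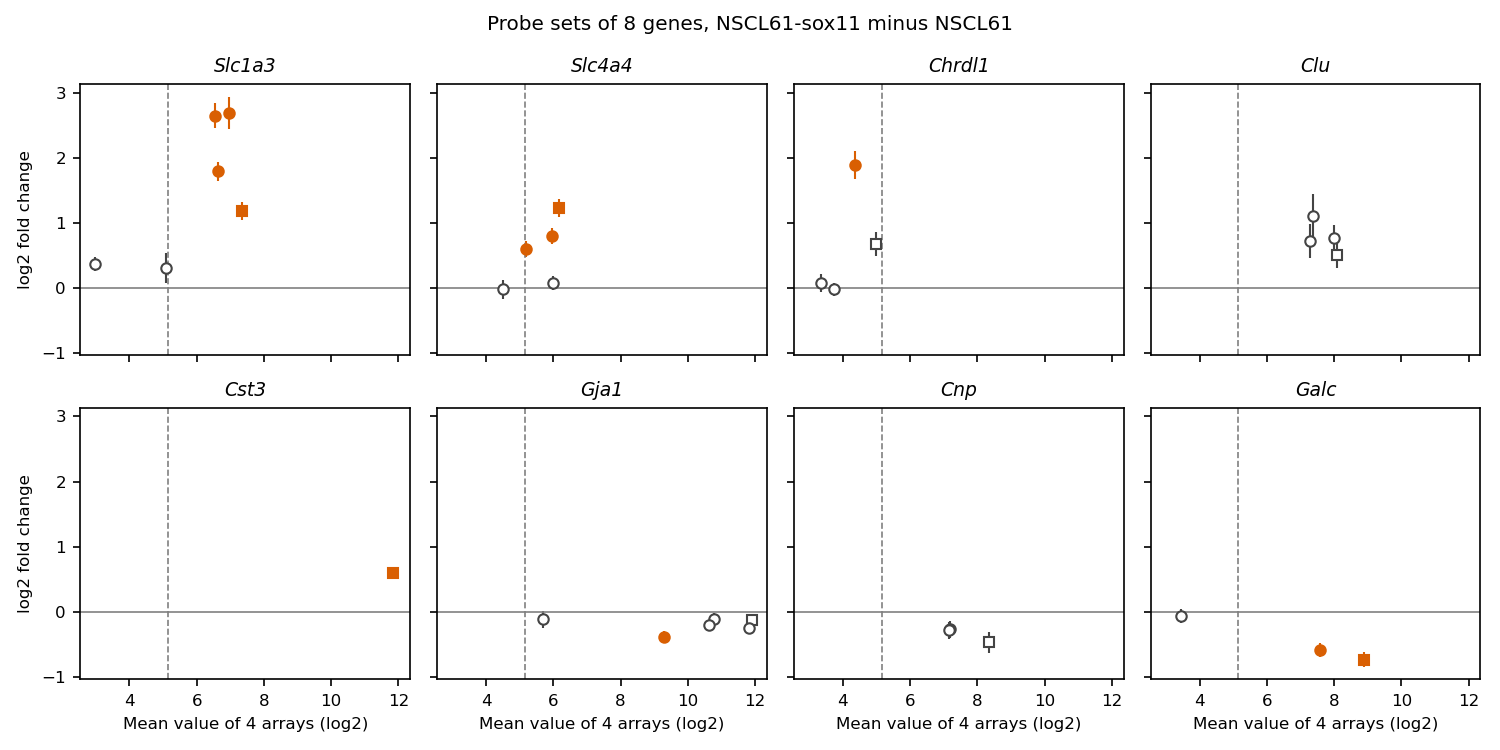
Log2 fold change (y axis, NSCL61-sox11 minus NSCL61, n = 2 arrays each, bars are moderated SE) against the mean log2 value of the 4 arrays (x axis) for every probe set of 8 genes; squares are the brightest probe set, filled orange symbols passed at an adjusted p under 0.05, and the dashed line is the dim level of 5.15. The called probe sets of Slc1a3 ranged from 1.19 to 2.69, Chrdl1 had 1 called probe set at 1.89, and no Clu or Cnp probe set passed.

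Over all probe sets of the 46 genes, 12 of 106 were called (11.3%), 9 higher and 3 lower, against 10.1% of the 45037 tested (5.44% higher and 4.65% lower). They belonged to 6 genes, the 4 above with Chrdl1 and Gja1. Of the 24 genes with more than 1 probe set, 12 had every probe set on the same side of 0.

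Of the 7 genes of oligodendrocyte precursors, 6 were dim in both lines, and none of the 7 passed the test. With limma 0 of 7 passed, 1 of them had an unadjusted p under 0.05, and the median was 0.03 (range -0.19 to 0.25). Olig2, which specifies the lineage, was at 2.68 ± 0.04 and 2.81 ± 0.05 (SD, n = 2 each), in the lowest 2.32% of probe sets. Olig1, its neighbour in the genome and in function, read 3.80 and 3.83 on the NSCL61 arrays and 4.08 and 4.05 on the NSCL61-sox11 arrays, a difference of 0.25 (limma adjusted p = 0.21). Nkx2-2, a homeobox gene of the same programme, differed by 0.05, and Gpr17, a receptor gene of committed precursors, by -0.19. Nkx6-2, a homeobox gene of maturing oligodendrocytes, was at 4.21 and 4.24, and its interval ran from -0.32 to 0.39. Lhfpl3, a tetraspan membrane protein gene, was at 4.17 and 4.07, with an interval from -0.41 to 0.21. Matn4, a matrix protein gene, was the only 1 of the 7 above the dim level, at 6.29 ± 0.06 and 6.26 ± 0.08 (SD, n = 2 each), with an interval from -0.30 to 0.22.

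Of the 17 myelin genes, 0 rose, Galc fell and 16 did not pass, 5.88% called beside 13.0% of all genes. Of the 17, 3 had an unadjusted p under 0.05, and the median was -0.07. Several genes encode proteins of compact myelin or its surface. Mbp was at 6.59 ± 0.18 and 6.48 ± 0.01 (SD, n = 2 each) on its brightest probe set, Mobp at 6.36 ± 0.09 and 6.24 ± 0.13, and Mog at 2.92 ± 0.07 and 3.13 ± 0.03. Over the 4 arrays, the means of the 8 Mbp probe sets ran from 6.53 down to 2.87. Those of the 5 Mobp probe sets ran from 6.30 down to 3.36. The 8 Mbp probe sets differed by -0.27 to 0.11 with none called (limma adjusted p = 0.23 to 0.99), and the interval of the brightest ran from -0.40 to 0.18. Cldn11, the tight junction gene of myelin, was at 3.33 and 3.30, and Mag, an adhesion molecule gene, differed by -0.14 from 5.94. Myrf, the transcription factor gene that drives myelination, was at 5.66 and 5.55 and differed by -0.11. Ugt8a, Fa2h and Gal3st1, which encode enzymes that make galactolipids or the fatty acids in them, differed by -0.12, -0.03 and 0.06.

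The brightest myelin genes beside Galc were Sirt2 and Cnp. Sirt2, a deacetylase gene with many sites of expression, read 9.45 and 9.49 on the NSCL61 arrays and 9.66 and 9.75 on the NSCL61-sox11 arrays. These did not overlap, and the difference of 0.24 did not pass (limma adjusted p = 0.13). Cnp, the gene of a phosphodiesterase abundant in oligodendrocytes, read 8.43 and 8.76 on the NSCL61 arrays and 7.93 and 8.32 on the NSCL61-sox11 arrays, a difference of -0.47 (limma adjusted p = 0.13), and its 3 probe sets differed by -0.47 to -0.27. With hybridisation control scaling, Cnp was called lower along with Aldh1l1, Acsbg1 and Ttyh1. The summed linear level of the 17 was 2337 to 2462 on the NSCL61 arrays and 2046 to 2240 on the NSCL61-sox11 arrays, which do not overlap. Taken singly, 30.6% of all genes likewise had no overlap and were lower in NSCL61-sox11. Galc and Cnp, which were lower, and Sirt2, which was higher, weigh most in this sum. It therefore cannot show whether the remaining 14 moved together. Of the 17, 13 had a lower mean and 4 a higher mean in NSCL61-sox11, beside 10024 and 8169 of all 18193 genes. The arrays of the lines did not overlap for 7 that were lower and 2 that were higher, against 30.6% and 25.0% of all genes.

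Prom1, a membrane glycoprotein gene of neural stem cells, and Nr2e1, an orphan nuclear receptor gene that keeps them dividing, were dim in both lines. Prom1 differed by 0.13 (interval -0.26 to 0.52) and Nr2e1 by -0.25 (limma adjusted p = 0.26). With limma 0 of the 2 passed, and 0 reached an unadjusted p under 0.05.

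Other genes of the same lineages were read from lists that the 46 do not share. Of 20 other genes of astrocytes and radial glia, 5 rose, 2 fell and 13 did not pass, with a median of 0.07 that was -0.33 with poly-A control scaling. Id4, an inhibitor of basic helix-loop-helix factors, rose from 9.62 ± 0.01 to 11.80 ± 0.26 (SD, n = 2 each), 4.54-fold. Nfix, a nuclear factor I gene, rose from 10.26 ± 0.05 to 11.90 ± 0.01 (SD, n = 2 each), 3.12-fold, and S1pr1, a sphingosine phosphate receptor gene, rose 3.03-fold. Nfib and Gli3 also rose, by 0.53 and 0.41, and Mt3, a metallothionein gene, and Hopx fell, with log2 fold changes of -1.52 and -1.26. Those last 4 were named after their values were seen. Gfap, the intermediate filament gene of astrocytes, likewise named after its values were seen, was at 6.05 ± 0.05 and 5.77 ± 0.03 (SD, n = 2 each) and did not pass (limma adjusted p = 0.16). Without NSCL61 array 1, 2 of the 20 rose and 1 fell, and without NSCL61 array 2, 3 rose and 0 fell.

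Of 14 other precursor genes measured, 2 rose, 1 fell and 11 did not pass, with a median of -0.02. Pdgfra, the receptor through which PDGF acts on precursors, read 7.97 and 8.35 on the NSCL61 arrays and 9.97 and 10.18 on the NSCL61-sox11 arrays, 3.76-fold higher (log2 fold change 1.91). Vcan, a proteoglycan gene, fell from 9.54 ± 0.13 to 8.35 ± 0.08 (SD, n = 2 each), and Sox5 rose by 0.46, a call that was lost when any 1 array was left out. Of 13 other myelin genes measured, Tcf7l2, a Wnt effector gene, rose by 0.75, Plxnb3 fell by 0.87 and 11 did not pass, with a median of -0.12. Without NSCL61 array 1 neither of these 2 was called. The call of Plxnb3 was also lost without NSCL61 array 2, and that of Tcf7l2 without NSCL61-sox11 array 2 and with poly-A control scaling.

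The labels name a neural stem cell, and 10 further genes of that cell type were read. Each was above the dim level, as were some genes of other cells, such as Rbfox3 of neurons (7.10) and Trem2 of microglia (6.51) over the 4 arrays. Most genes of those lists were dim in both lines, 6 of 10 for neurons and 7 of 10 for microglia and blood. Prom1, Nr2e1 and Fabp7 were dim in both lines, so these levels cannot settle the cell type. Vim, an intermediate filament gene, was at 14.38 and 14.17 and Nes, the nestin gene, at 9.39 and 9.44. Of the 10, 1 rose (Lhx2, 10.4-fold), 3 fell (Sox2 by 1.70, Pax6 by 0.45 and Vim by 0.21) and 6 did not pass. Sox2 went from 10.52 ± 0.32 to 8.82 ± 0.21 (SD, n = 2 each). The calls of Pax6 and Vim were among those lost without NSCL61 array 1 or 2, which left 1 rise and 1 fall.

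**Figure D4:**
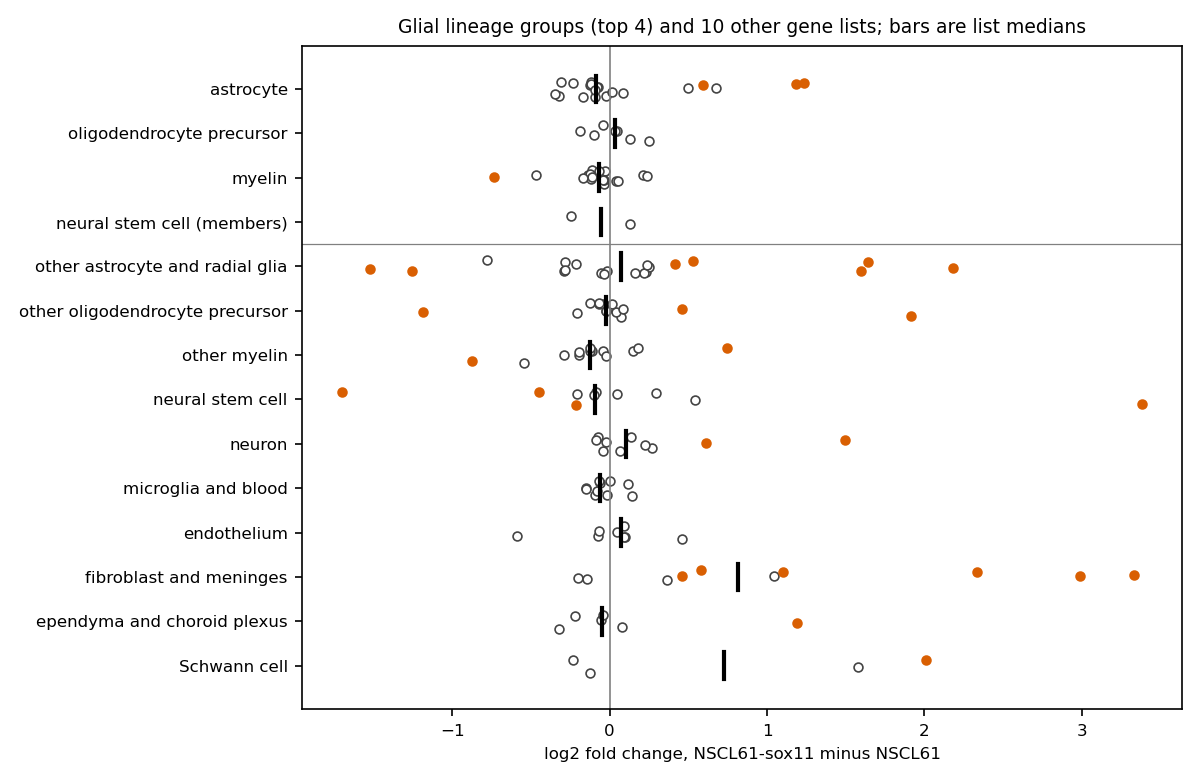
Log2 fold change (x axis, NSCL61-sox11 minus NSCL61, n = 2 arrays each) of each gene, with 1 point per gene, in the 4 groups of the 46 genes (above the line) and in 10 other gene lists; filled orange points passed at an adjusted p under 0.05 and black bars are list medians. The 4 groups had medians from -0.09 to 0.03, and the fibroblast and meninges list had the largest median, 0.81.

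Markers of other cells were read beside these. Of 10 fibroblast and meninges genes, 6 rose and 0 fell (7 had an unadjusted p under 0.05), with a median of 0.81 and a summed linear level of 1488 to 2311 on the NSCL61 arrays and 3740 to 7248 on the NSCL61-sox11 arrays. Col1a1 rose 7.93-fold and Pdgfrb 5.04-fold, and both calls ended without NSCL61 array 1 (adjusted p = 0.050 and 0.058). Postn rose 10.1-fold with widely spaced NSCL61-sox11 arrays (8.27 and 10.59): it was 22.5-fold higher without the first of them and 4.50-fold higher without the second, and it was not called without NSCL61 array 1 (adjusted p = 0.21) or 2 (0.13). When 1 array was left out, the number called was 1 for NSCL61 array 1, 3 for NSCL61 array 2 and 4 for NSCL61-sox11 array 2, and it was 3 with poly-A control scaling. Pdgfra, S1pr1 and Slc1a3 are not specific to glia, and the part of such cells in the results above was not tested. In bulk RNA, fewer cells of a type and less RNA per cell cannot be told apart. Of 10 neuron genes, 2 rose (Tubb3 by 1.50 and Syt1 by 0.62), 0 fell, and 6 were dim in both lines. Syt1 was not called without NSCL61 array 1 or 2 (adjusted p = 0.10 and 0.13), nor with poly-A (0.53) or hybridisation (0.14) control scaling, while Tubb3 was called in each of these. Of 10 microglia and blood genes, 7 were dim in both lines and 0 were called with limma, 0 also at an unadjusted p under 0.05. The brightest of these, Csf1r, differed by -0.15 (limma adjusted p = 0.51). Of 8 endothelial genes 0 were called with limma, and 2 had an unadjusted p under 0.05. The brightest endothelial gene, Flt1, differed by 0.46 (limma adjusted p = 0.077).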

How the data were processed

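Total RNA of 2 samples of NSCL61 and 2 of NSCL61-sox11 was measured on Affymetrix M430_2 arrays, 1 array per sample, per the labels. The authors deposited processed log2 values of 45101 probe sets per array, already summarised over probes; these run from 2.13 to 14.62, the base was read from this range, and the method of summary and normalization was not given in the sources used here. Probe sets were named through the platform annotation: 34945 of 45037 non-control probe sets have 1 symbol, 932 several and 9160 none here, and 64 control probe sets were not tested. The gene table of GRCm38.p6 updated 0 symbols.

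A two-sided moderated test of limma (version 3.58.1, R 4.3.3; lmFit and eBayes, trend = TRUE) was fitted to these values with no level filter, with Benjamini-Hochberg adjustment over all 45037 probe sets. The residual degrees of freedom are 2, and the prior adds a median of 5.31. The SD of a level is over 2 arrays, intervals are limma's moderated 95% intervals, and the number of arrays limits their precision. The script was tested on simulated data. Figures were drawn with matplotlib 3.10.9.

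The 46 genes and the 10 other lists (astrocytes and radial glia, oligodendrocyte precursors, myelin, neural stem cells, neurons, microglia and blood, endothelium, fibroblasts and meninges, ependyma and choroid plexus, Schwann cells) were chosen with earlier results of these data known. Named genes are the called members, the 3 brightest uncalled members of each group, members with another probe set called, and of each other list the brightest gene or, where any was called, up to 3 called genes by size of change. Other members with values of their own in the text (among them Clu, Glul, Acsbg1, Aldh1l1, Ttyh1, Olig1, Olig2 and Mog) lie outside this rule. So do Nes, Vim, Rbfox3, Trem2, Fabp7, Egr2, Ngfr and Cdh19 of the other lists. All of these were named after their values were seen. Alternatives were the brightest 60% of probe sets, 4 other scalings of the arrays (quantile, median, 24 poly-A control probe sets, 18 hybridisation control probe sets), 2 other choices of probe set, no intensity trend, the replicate number as a block, and each array left out in turn.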

Additional observations from a re-analysis of the deposited data

How the results depend on the processing

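Under 13 alternatives the 4 calls held or were lost as follows. Of 203 values of 16 named genes, 167 kept their direction and side of the threshold, 9 lost a call, 7 gained one and 20 changed sign; each of those 20 belongs to a gene that was not called. The 3 rises became 0 with poly-A control scaling (2 had an unadjusted p under 0.05 in limma) and 6 with the replicate block (Slc1a3, Slc4a4, Cst3, Clu, Chrdl1 and Sirt2), and 1 to 4 when 1 array was left out. The 1 fall became 5 with hybridisation control scaling, 3 with the replicate block (Galc, Acsbg1 and Cnp), and 0 to 3 when 1 array was left out; it was 0 without NSCL61 array 1 or NSCL61 array 2, where 3 and 2 had an unadjusted p under 0.05 in limma. The lone array of a line is then assumed to vary like the others. The labels give both lines the numbers 1 and 2; arrays of the same number deviated from their line means with r = 0.279, and 2 pairs do not show that the numbers pair the samples. With that block, calls over all genes went from 1263 to 2382 higher and from 1093 to 2306 lower. Over all genes, 394 rose and 215 fell without NSCL61 array 1, 447 and 154 without NSCL61 array 2, 307 and 858 with poly-A control scaling, and 714 and 2333 with hybridisation control scaling, where the medians were -0.43 and -0.24.

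The log2 fold change of Cd44 was -0.013 with median centring, -0.39 with poly-A control scaling, -0.20 with hybridisation control scaling and -0.095 with the mean of its probe sets. With poly-A control scaling Nkx6-2 was at -0.37, Sirt2 at -0.17 and Prom1 at -0.27, and with hybridisation control scaling Nkx6-2 was at -0.18 and Prom1 at -0.086. With the mean of its probe sets Lhfpl3 was at 0.029. With 1 array left out, Cd44 ran from -0.087 to 0.11, Nkx6-2 ran from -0.17 to 0.24, Lhfpl3 ran from -0.22 to 0.019, Matn4 ran from -0.10 to 0.019, Mbp ran from -0.24 to 0.018 and Prom1 from -0.11 to 0.38. The cause of these changes was not tested, except that control scaling moves every value alike. The brightest 60% of probe sets hold 29 of the 46 genes and gave the same 4 calls, and no value for the stem cell members.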

Other observations

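The remaining marker lists gave values that belong to no comparison above, apart from Cdh19, which is also among the other myelin genes measured. Of 6 ependyma and choroid plexus genes, Aqp1, a water channel gene, rose 2.29-fold and 5 did not pass, with a median of -0.05, and its call was lost without NSCL61 array 1 or NSCL61 array 2, with poly-A control scaling (adjusted p = 0.096) and without the intensity trend (0.064). Of 4 Schwann cell genes measured, Pmp22, a myelin protein gene of peripheral nerve that fibroblasts also make, rose 4.03-fold (from 7.24 ± 0.20 to 9.26 ± 0.38, SD, n = 2 each) and 3 did not pass. Their summed linear level was 302 to 394 on the NSCL61 arrays and 782 to 1200 on the NSCL61-sox11 arrays. Pmp22 and Egr2, which differed by 1.58 without passing (limma adjusted p = 0.053), make up that difference, while Ngfr and Cdh19 differed by -0.23 and -0.12.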
